A study of Mus musculus with 6 samples.

Results

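A set of 10 imprinted genes with known roles in the hypothalamus was followed in brain RNA from mice with and without a working copy of Dap12, the signalling adaptor of microglia that Tyrobp encodes. The genes were Dlk1, Meg3, Peg3, Peg10, Nnat, Ndn, Magel2, Snrpn, Cdkn1c and Igf2, and every probe set (a set of short probes on the array that reports 1 transcript) whose only gene symbol was one of these was taken. That gave 33 of the 45101 probe sets on the array, for all 10 genes. Of these, 26 probe sets for 9 genes passed a filter on level (mean log2 signal above the median of all probe sets) and were tested, and 7 lay below it. A further 6 probe sets that name Snrpn together with another gene were not used. The study compared 3 arrays labelled Dap12-ko (67, 68 and Ko1), from mice without Dap12, with 3 arrays labelled Dap12-het (75, 76 and 81), from heterozygous mice with 1 intact copy. All 6 mice were 1 month old and the material was total RNA of the brain. No wild-type mice enter the comparison, so both groups carry a disrupted Dap12 allele. How that allele was made, the strain, sex and litter of the mice, and the part of the brain taken are not given in the sources used here. By its source label, the brain of all 6 mice was Dap12-deficient, so the genotype was taken from the title and description.

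Imprinted genes are expressed from the copy inherited from 1 parent, while the other copy is silenced by DNA methylation and chromatin marks laid down in the germ line. They lie in clusters in which paternally expressed and maternally expressed genes are neighbours under a shared imprinting control region. Many are active in the hypothalamus, where they bear on feeding, growth, body temperature and maternal care, and loss of the paternal copies of the Snrpn, Ndn and Magel2 region causes Prader-Willi syndrome in humans. Of the genes followed here, 8 were classed as expressed from the paternal copy (Dlk1, Peg3, Peg10, Nnat, Ndn, Magel2, Snrpn and Igf2) and 2 from the maternal copy (Meg3 and Cdkn1c). These are general classes. Whether they hold in each tissue of the brain, such as the choroid plexus and meninges for Igf2, was not examined. The arrays report total RNA and cannot tell the parental copies apart.

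The promoters of the gene pairs on which the results turn are shown because each pair lies in 1 cluster and holds 1 gene called by the test (Dlk1, Snrpn) and 1 gene that was not (Meg3, Ndn): Dlk1 and Meg3 on chromosome 12, and Snrpn and Ndn on chromosome 7. Each window holds 300 bases, most of them before the gene start and the last ones after it, and is written 5′ to 3′ on the strand of the gene, from RefSeq annotation of the mouse assembly GRCm38.p6. The windows are chr12:109452573-109452872 (plus strand) for Dlk1, chr12:109540746-109541045 (plus) for Meg3, chr7:60005150-60005449 (minus) for 1 of 4 Snrpn starts, and chr7:62348027-62348326 (plus) for Ndn. Capitals mark CGCATGCG, which holds GCATGCG, the core of the motif of the factor NRF1, on both strands, and TGACGTCA, the cyclic AMP response element bound by CREB.
Dlk1: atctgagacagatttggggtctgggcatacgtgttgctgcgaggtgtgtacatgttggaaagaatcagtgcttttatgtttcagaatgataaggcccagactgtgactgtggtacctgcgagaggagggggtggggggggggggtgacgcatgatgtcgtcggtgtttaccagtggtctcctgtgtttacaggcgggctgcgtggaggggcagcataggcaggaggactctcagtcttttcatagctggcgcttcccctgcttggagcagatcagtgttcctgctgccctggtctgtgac
Meg3: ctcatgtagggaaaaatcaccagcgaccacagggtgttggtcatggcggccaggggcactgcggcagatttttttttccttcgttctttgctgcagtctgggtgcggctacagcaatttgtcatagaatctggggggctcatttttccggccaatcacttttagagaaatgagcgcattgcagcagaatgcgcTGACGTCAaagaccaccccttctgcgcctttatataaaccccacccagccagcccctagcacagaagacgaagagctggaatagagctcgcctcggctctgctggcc
Snrpn: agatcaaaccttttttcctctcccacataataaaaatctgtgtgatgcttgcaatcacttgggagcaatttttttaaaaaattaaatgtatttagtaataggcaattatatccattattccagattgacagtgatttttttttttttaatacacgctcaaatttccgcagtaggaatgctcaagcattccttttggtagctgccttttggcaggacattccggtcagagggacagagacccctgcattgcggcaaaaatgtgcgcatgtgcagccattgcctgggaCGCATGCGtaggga
Ndn: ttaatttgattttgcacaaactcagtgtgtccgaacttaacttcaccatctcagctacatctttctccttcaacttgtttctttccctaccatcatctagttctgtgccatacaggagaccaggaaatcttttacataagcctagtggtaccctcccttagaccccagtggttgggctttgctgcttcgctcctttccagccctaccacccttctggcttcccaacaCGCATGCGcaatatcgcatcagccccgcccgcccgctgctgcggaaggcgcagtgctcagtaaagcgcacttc

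Windows were found for 8 of the 10 genes, and Peg10 and Cdkn1c are named only. GCATGCG was searched on both strands and was present in the windows of Ndn, Nnat and Snrpn, against 3.58% of all 32841 windows of this length. TGACGTCA, which reads the same on both strands, was present in 2 of the 15 windows, of Meg3 and Peg3, against 1.79% of all windows. Neither motif was found in the windows of Dlk1, Magel2 and Igf2. Both motifs were chosen after the sequences had been seen, and a match is a description of these letters only. The printed windows held 9 CpG dinucleotides at Dlk1, 13 at Meg3, 7 at Snrpn and 11 at Ndn, and the median over all windows was 7.

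Some facts of the 6 arrays touch every value that follows. The deposited values are linear signal intensities, and each array had been scaled to a trimmed mean of 100. The median signal was between 24.6 and 40.3 on the Dap12-ko arrays and between 20.3 and 21.9 on the Dap12-het arrays, so dim probe sets sat higher on the Dap12-ko arrays, and 43 of 45 spiked control probe sets were higher on every Dap12-ko array than on any Dap12-het array. Tyrobp itself had signals of 2.28, 23.7 and 12.9 on the Dap12-ko arrays against 70.7, 68.2 and 77.6 on the Dap12-het arrays, and fell by 1.68 on the log2 scale (SE 0.33, limma adjusted p = 0.044), as the labels have it. Its Dap12-ko mean was under the filter level, so it entered the test only through the Dap12-het arrays and had to be lower. Without the filter the limma adjusted p was 0.095. Xist, expressed in females, was highest on Dap12-ko array 67, at 52.3, and between 9.29 and 20.2 on the other arrays. This probe set lay below the filter on level. Xist as a covariate therefore mostly sets array 67 apart, and it was not shown to track sex. Nothing in the labels says that the arrays come from separate extractions or litters, so the p-values measure the spread among these arrays. All changes below are Dap12-ko minus Dap12-het on the scale of log2(signal + 16), which understates changes of dim probe sets. In whole tissue, fewer cells of a type and less RNA per cell cannot be told apart.

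Among the 10 genes, Dlk1 fell on both of its probe sets, Snrpn rose on its only usable probe set, and no probe set of the others passed the test. The test was limma's moderated test across all 22518 probe sets above the filter, with Benjamini-Hochberg adjustment and a threshold of 0.05. It called 3 of the 26 tested imprinted probe sets, where 1.98% of all tested probe sets were called. Of these 3, 1 was higher on the Dap12-ko arrays, where 1.24% of all tested probe sets were called higher, and 2 were lower, where 0.733% were called lower. The change was above 0 for 12 probe sets and below 0 for 14, with a median of -0.14, where all tested probe sets split into 11290 above and 11228 below. The 3 arrays of a group did not overlap those of the other for 3 probe sets that were higher (14.9% of all tested probe sets did so) and for 7 that were lower (12.5% of all), which together is 10 of 26 against 27.4% of all tested probe sets. Of the 7 probe sets below the filter, 2 of Ndn were higher without overlap (18.8% of all below it) and none was lower (2.32%). An unadjusted p under 0.05 was reached by 11 of the 26, against 4713 of 22518 over the whole array. Array Ko1 weighed on these counts: without it 12 of the 26 passed, among 5220 calls in all. Without any 1 of the other arrays none of the 26 passed, where 0 to 29 of all 22518 passed. By Pearson correlation of log2 signals, Ko1 was nearer to the Dap12-het arrays (0.942 to 0.954) than to 67 (0.887) and 68 (0.910). Centring every array on its median moved the median change of all tested probe sets to -0.40 and the share of calls that were higher from 62.9% to 17.2%, while both Dlk1 probe sets stayed below 0 and Snrpn above it. In that scaling 7 of the 26 were above 0 and 19 below, where 4851 of all 22518 were above 0.

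**Figure D1:**
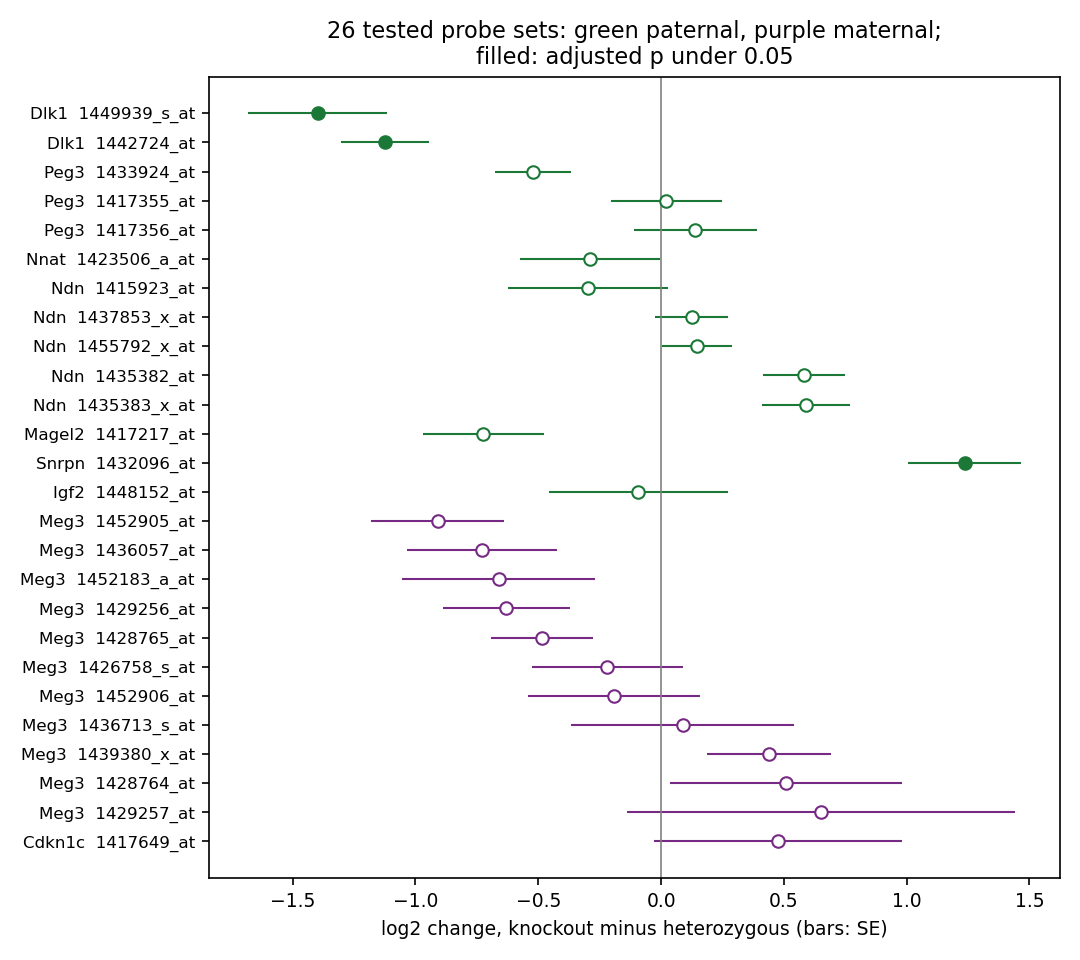
Log2 change (Dap12-ko minus Dap12-het, horizontal axis) of the 26 tested probe sets of 9 imprinted genes, with bars for the standard error, n = 3 arrays in each group; green marks paternally and purple maternally expressed genes, and filled points have a limma adjusted p under 0.05. Dlk1 lies at -1.40 and -1.12, Snrpn at 1.24, and the 11 probe sets of Meg3 spread from -0.91 to 0.65.

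Dlk1, a paternally expressed transmembrane protein related to Notch ligands and found in subsets of hypothalamic neurons, fell in the mice without Dap12. Probe set 1442724_at had signals of 159, 161 and 155 on Dap12-ko arrays 67, 68 and Ko1, against 351, 403 and 342 on Dap12-het arrays 75, 76 and 81. The 3 Dap12-ko arrays lay close together and all far below the lowest Dap12-het array. The change was -1.12 (SE 0.18, limma adjusted p = 0.029), a mean signal 2.30-fold higher in the Dap12-het group. The other probe set, 1449939_s_at, had signals of 64.9, 90.6 and 42.5 against 203, 243 and 147. Here too the groups did not overlap, but the Dap12-ko arrays were less alike and Ko1 was lowest. The change was -1.40 (SE 0.28, limma adjusted p = 0.048), so both probe sets of this gene gave the same direction and a like size. Each call rests on few arrays: leaving out any 1 array other than Ko1 raised the adjusted p to between 0.083 and 0.226, while the change stayed between -1.61 and -1.05. Without any 1 of those arrays, only 0 to 29 of all tested probe sets passed, so the loss is not particular to Dlk1. The call of 1442724_at also ended after quantile normalization (-1.02, adjusted p = 0.052) and with Xist as a covariate (-1.10, adjusted p = 0.17). That of 1449939_s_at ended with both and when signals were floored at 1 with nothing added, without the filter or without the trend (adjusted p from 0.058 to 0.23).

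Over the 6 arrays, the named probe sets most like Dlk1 1442724_at belonged to Ank2, Cbarp, Foxp4, Atg9a and Dscam. Likeness was the root mean square difference of the centred log2 signals, which was 0.06 to 0.10 for these and had a median of 0.64 over the 19920 probe sets compared. These values describe 6 arrays and say nothing of shared function or control.

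Meg3, the maternally expressed long non-coding RNA next to Dlk1, did not give 1 direction over its probe sets. It had 11 tested probe sets, more than any other of these genes, 4 with a change above 0 and 7 below, and none passed the test. The brightest, 1452906_at, had signals of 3020, 1725 and 1059 against 2365, 2245 and 1559, with a change of -0.19 (SE 0.35, limma adjusted p = 0.79). These groups overlapped, and arrays 67 and Ko1 lay on either side of all Dap12-het arrays. At the low end, 1452905_at had signals of 388, 501 and 822 against 1135, 894 and 1093, without overlap, and a change of -0.91 (SE 0.27, limma adjusted p = 0.11). At the high end, 1429257_at had signals of 4610, 3084 and 404 against 738, 1044 and 1928. Arrays 67 and 68 stood above every Dap12-het array on this probe set and Ko1 stood below every one, and the change was 0.65 (SE 0.79, limma adjusted p = 0.68). The same order, with 67 and 68 above and Ko1 below all Dap12-het arrays, held for 1428764_at, at 2617, 1619 and 549 against 896, 901 and 990. Beside 1452905_at, 1429256_at (-0.63) and 1428765_at (-0.48) were lower without overlap. The others were 1439380_x_at (0.44), 1436713_s_at (0.09), 1426758_s_at (-0.22), 1452183_a_at (-0.66) and 1436057_at (-0.73), whose groups overlapped. Of the 55 pairs of Meg3 probe sets, 28 had changes of opposite sign, so a single value for Meg3 depends on the probe set taken. Which exons or polyadenylation sites the probe sets read was not examined, because the probe sequences were not used here.

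**Figure D2:**
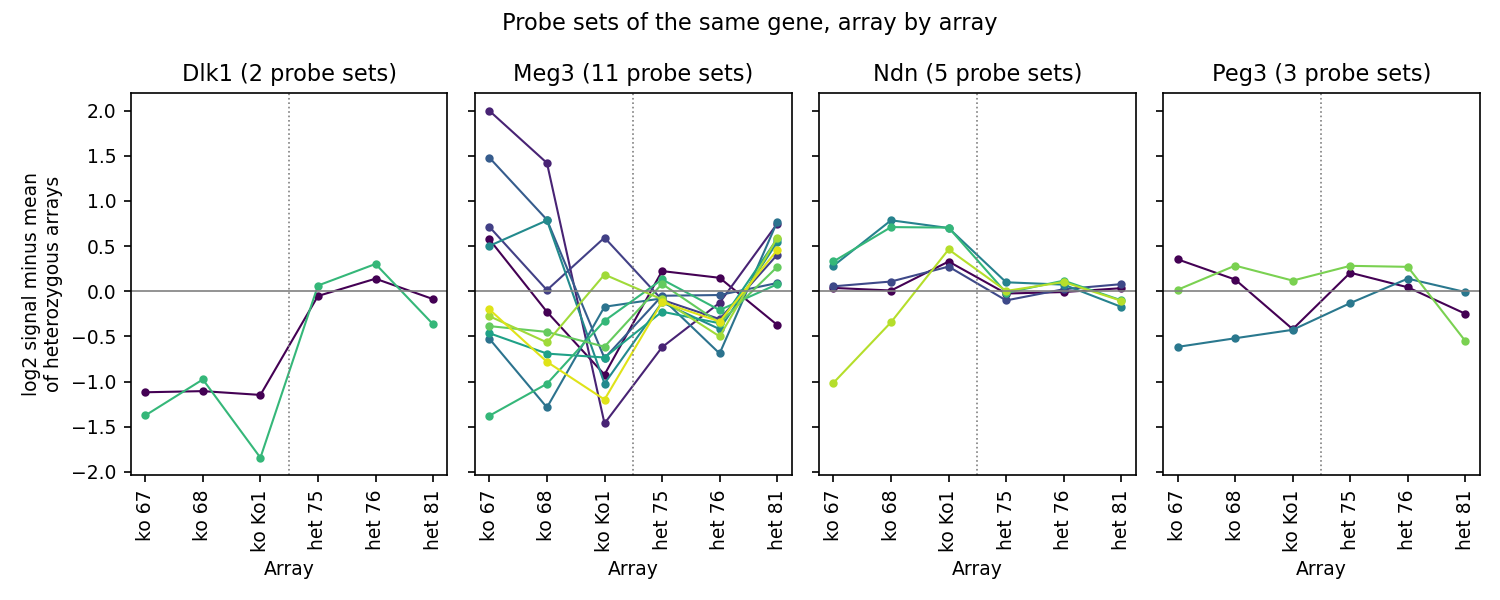
Log2 signal of each tested probe set minus its mean over the 3 Dap12-het arrays (vertical axis) on each of the 6 arrays (horizontal axis), with 1 line for each probe set of Dlk1, Meg3, Ndn and Peg3; lines join values of a probe set and imply no order of the arrays. Both Dlk1 lines drop on all 3 Dap12-ko arrays, whereas the 11 Meg3 lines cross and 28 of their 55 pairs differ in sign.

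The changes of the Meg3 probe sets ran from -0.91 to 0.65, so a difference between Dlk1 and Meg3 depends on the Meg3 probe set taken. The difference between Dlk1 and Meg3 within an array, taken from the brightest probe set of each, was 0.93 lower on the log2 scale in the mice without Dap12. Relative to its mean over the Dap12-het arrays, it was -1.69, -0.88 and -0.23 on the Dap12-ko arrays and -0.28, -0.01 and 0.29 on the Dap12-het arrays. Array Ko1 lay among the Dap12-het arrays, and the two-sided exact permutation test gave p = 0.2, where 3 against 3 arrays cannot give less than 0.1. Without arrays 67 and 68 the difference shrank to -0.23. Other maternally expressed RNAs of the same cluster were Rian, which hosts small nucleolar RNAs, and Mirg, which hosts microRNAs, with 6 tested probe sets together and none that passed. Rian 1452899_at had signals of 690, 832 and 666 against 432, 490 and 320, without overlap, and a change of 0.81 (SE 0.21, limma adjusted p = 0.083). The remaining 3 Rian probe sets had changes of 0.78, -0.37 and 0.14, and those of Mirg were -0.45 and -0.03. With Dlk1 and Meg3, the cluster had 19 tested probe sets, 7 with a change above 0 and 12 below.

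**Figure D3:**
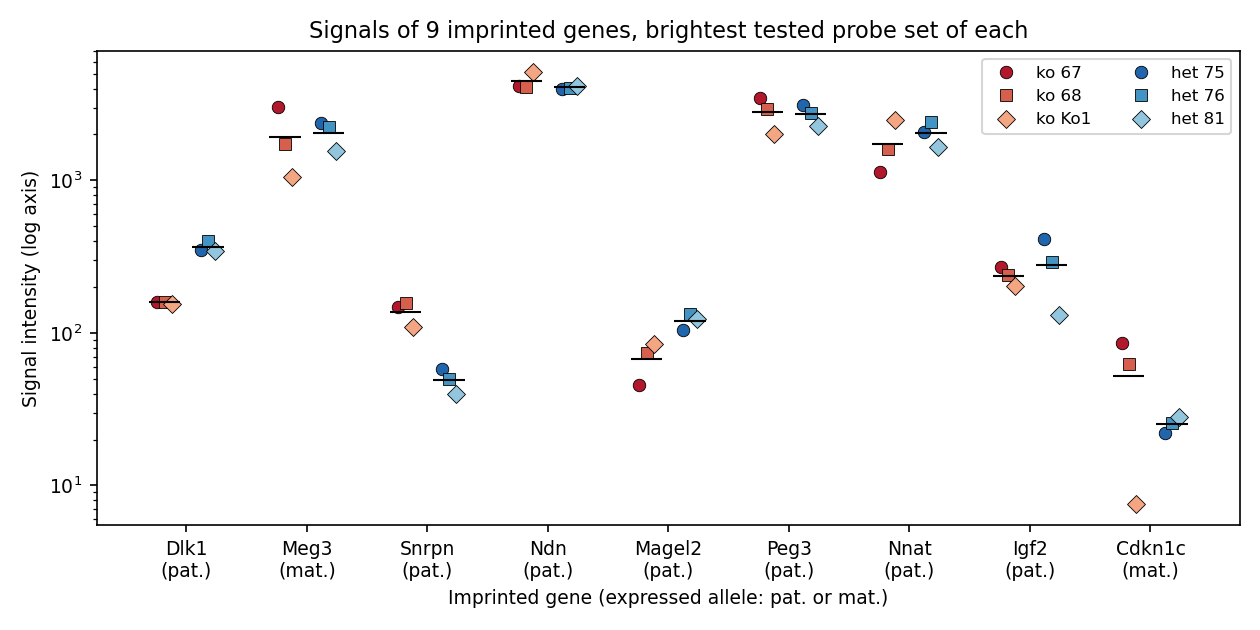
Signal intensity (vertical log axis) of the brightest tested probe set of 9 imprinted genes on the 3 Dap12-ko (red) and 3 Dap12-het (blue) arrays, with a bar at the group mean; pat. and mat. give the expressed copy. Dlk1 and Magel2 lie lower and Snrpn higher on all Dap12-ko arrays, and the groups overlap for Meg3, Ndn, Peg3, Nnat, Igf2 and Cdkn1c.

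In the Prader-Willi cluster on chromosome 7, the only tested probe set of the paternally expressed Snrpn rose. Ndn was split between probe sets, and neither Ndn nor Magel2 passed the test. The 6 probe sets that name Snrpn with another gene were not examined. Snrpn encodes a spliceosomal protein abundant in neurons. Its probe set 1432096_at had signals of 148, 157 and 109 on the Dap12-ko arrays against 58.3, 49.8 and 39.5 on the Dap12-het arrays. All Dap12-ko arrays lay above the highest Dap12-het array, and the change was 1.24 (SE 0.23, limma adjusted p = 0.039), a 2.80-fold higher mean signal. After centring every array on its median the change was 0.83 (limma adjusted p = 0.072). Leaving out 1 of the arrays 67, 68, 75, 76 and 81 left 0 to 29 calls over all tested probe sets. The call of Snrpn then ended (limma adjusted p from 0.11 to 0.19). It also ended with quantile normalization, without the filter, without the trend, with Xist as a covariate and without 67 and 68 together (adjusted p from 0.053 to 0.19). This probe set was dim on the Dap12-het arrays. Among the 7311 tested probe sets with a Dap12-het mean below 60, 2.15% were called higher and 0.0137% lower. These were picked by a low Dap12-het signal among probe sets that had passed a filter on the mean of all arrays. That choice itself favours calls upward, so the split cannot show how dim probe sets behave on these arrays.

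Ndn encodes necdin, a MAGE-family protein of postmitotic neurons. Of its 8 probe sets, 5 were tested. Probe set 1435382_at had signals of 2689, 3505 and 3492 against 2110, 2318 and 1991, and 1435383_x_at had 3134, 4450 and 4193 against 2759, 2709 and 2282. On both, every Dap12-ko array was above every Dap12-het array, with changes of 0.58 (SE 0.17, limma adjusted p = 0.10) and 0.59 (SE 0.18, adjusted p = 0.12) that did not pass. The brightest, 1437853_x_at, had signals of 4167, 4084 and 5107 against 3990, 4036 and 4158, and 1455792_x_at was likewise close, with changes of 0.12 and 0.15 that turned to -0.28 and -0.26 after centring and to -0.33 and -0.29 after quantile normalization. The fifth, 1415923_at, had signals of 1335, 2135 and 3745 against 2719, 2913 and 2520, so that its Dap12-ko arrays lay on both sides of the Dap12-het arrays, and its change was -0.30. Of the 10 pairs of Ndn probe sets, 4 had opposite signs. The 3 Ndn probe sets below the filter had signals of at most 21.8 on any array. Ndn minus Snrpn within an array, from the brightest probe sets, was 1.11 lower on the log2 scale on the Dap12-ko arrays, without overlap (two-sided exact permutation p = 0.1, the smallest these arrays can give, and 0.2 when adjusted over the 2 differences tested).

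Magel2, a MAGE-family regulator of endosomal protein sorting expressed mainly in the hypothalamus, had signals of 45.2, 74.2 and 84.4 against 105, 133 and 123. All Dap12-ko arrays were below the lowest Dap12-het array, and array 67 was lowest. The change of -0.72 (SE 0.25, limma adjusted p = 0.15) did not pass the test. Ipw, a non-coding RNA between Snrpn and Ube3a, had signals of 66.3, 77.4 and 78.8 against 10.3, 10.6 and 21.2 and a change of 1.60 (SE 0.26, limma adjusted p = 0.032). Its mean log2 value on the Dap12-het arrays, 4.89, was under the filter level of 5.33, so it entered the test only through the Dap12-ko arrays and had to be higher there. Ube3a, a ubiquitin ligase expressed from the maternal copy in neurons, had 6 tested probe sets, of which 3 entered the test only through the Dap12-ko arrays. Among these 3, 1425206_a_at was called, at 114, 98.2 and 55.7 against 18.5, 13.8 and 19.2, with a Dap12-het mean log2 value of 5.05 and a change of 1.63 (SE 0.29, limma adjusted p = 0.038). The brightest Ube3a probe set, 1416680_at, read 689, 999 and 945 against 716, 629 and 794, with overlap and a change of 0.28 (limma adjusted p = 0.46). The calls of Ipw and of Ube3a likewise depended on each of these 5 arrays (adjusted p from 0.082 to 0.19), and ended too with quantile normalization, without the filter, with the Xist covariate and without 67 and 68, and for Ipw after centring (adjusted p from 0.056 to 0.19). Snhg14, the long host transcript that runs from Snrpn across Ube3a in antisense, had changes of -0.14 and -0.07 on its 2 tested probe sets. The cluster as a whole had 17 tested probe sets, 12 with a change above 0 and 5 below, or 9 and 8 after centring, and 4 of the 12, of Ipw and Ube3a, had to be above 0 because of the filter. None of the 26 tested probe sets of the 10 genes entered the test through 1 group only. The probe sets called higher in it, those of Snrpn, Ipw and Ube3a, all had Dap12-het means below 60.

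Peg3 encodes a large zinc-finger protein of neurons that is known for its part in maternal care and feeding. Its 3 tested probe sets did not give 1 picture. Probe set 1433924_at had signals of 1717, 1836 and 1960 against 2410, 2911 and 2624, lower without overlap, with a change of -0.52 (SE 0.15, limma adjusted p = 0.11). The brightest, 1417355_at, had signals of 3453, 2955 and 2013 against 3114, 2783 and 2268, and 1417356_at had 534, 646 and 574 against 645, 639 and 355. Both overlapped, with changes of 0.02 and 0.14 that turned to -0.38 and -0.26 after centring; the former was also below 0 after quantile normalization (-0.23). The 2 Peg3 probe sets below the filter did not exceed 6.89 on any array. Usp29, the paternally expressed neighbour of Peg3, had signals of 120, 302 and 219 against 332, 351 and 328, lower on every Dap12-ko array, with a change of -0.70 (SE 0.30, limma adjusted p = 0.22).

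Nnat encodes neuronatin, a small membrane protein of the endoplasmic reticulum in neurons and endocrine cells. It had signals of 1126, 1599 and 2489 on the Dap12-ko arrays against 2083, 2408 and 1645 on the Dap12-het arrays. Array Ko1 was the highest of all 6 and arrays 67 and 68 the lowest, and the change of -0.29 (SE 0.29) did not pass the test (limma adjusted p = 0.60). Blcap, in whose intron Nnat lies, had a change of -0.17 (limma adjusted p = 0.62). Peg10, a gene derived from a retrotransposon and known for its role in the placenta, had 1 probe set, with signals of 17.1, 1.56 and 11.0 against 6.94, 4.05 and 4.43, below the filter and not tested. Its neighbour Sgce, encoding epsilon-sarcoglycan, had signals of 222, 195 and 267 against 173, 165 and 159, all higher without Dap12, with a change of 0.42 (SE 0.19, limma adjusted p = 0.26). In the same cluster the maternally expressed Asb4 and Calcr had changes of -0.92 (limma adjusted p = 0.18) and -0.75 (limma adjusted p = 0.17).

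Cdkn1c encodes the cyclin-dependent kinase inhibitor p57 and is expressed from the maternal copy. Its signals were 85.3, 63.0 and 7.58 against 22.1, 25.6 and 28.3, so that arrays 67 and 68 lay above and Ko1 below all Dap12-het arrays. The change was 0.48 with an error of its own size (SE 0.50, limma adjusted p = 0.63). Of its neighbours, Kcnq1ot1, the paternally expressed antisense RNA of the cluster, had changes of -0.55, -0.23 and -0.25 on 3 tested probe sets, and Tssc4 had signals of 121, 154 and 156 against 230, 203 and 251, with a change of -0.62 (SE 0.20, limma adjusted p = 0.13). Igf2, a growth factor that the adult rodent brain makes chiefly in the choroid plexus and meninges, had signals of 269, 240 and 203 against 414, 293 and 130. The Dap12-ko arrays lay within the range of the Dap12-het arrays, and the change was -0.09 (SE 0.36, limma adjusted p = 0.91), or 0.02 after quantile normalization. Its other probe set was below the filter, with no signal above 11.4.

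Set by parental copy, each class was mixed in direction. The paternally expressed genes had 14 tested probe sets, 7 with a change above 0 and 7 below, a median of -0.04 (-0.44 after centring, 0.20 without arrays 67 and 68), and the 3 calls (1 higher, 2 lower). The maternally expressed genes had 12, of which 11 are Meg3, with 5 above 0, 7 below, a median of -0.21 (-0.61 after centring, -0.74 without arrays 67 and 68, -0.45 with Xist as a covariate) and no call. In limma an unadjusted p under 0.05 was reached by 7 of the 14 paternal and 4 of the 12 maternal probe sets, against 4713 of all 22518. No test of one class against the other was made, since probe sets of a gene are not replicates and the maternal class is mostly 1 gene. With only the brightest probe set of each gene, the paternal median over 7 genes was -0.09 and the maternal median over 2 genes was 0.14, a change of sign in the latter. The same choice over all 11467 genes also gave a median of -0.09. By array, relative to the Dap12-het mean, the paternal median was 0.03, -0.03 and 0.20 on arrays 67, 68 and Ko1, and the maternal median was 0.15, -0.34 and -0.74. After centring, 3 of 14 paternal and 4 of 12 maternal probe sets were above 0.

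Other imprinted genes were mixed in direction too. Of 27 further paternally expressed genes, 14 had 22 tested probe sets, of which 1 was called higher (Ipw) and none lower, with a median of -0.08. Zdbf2, with signals of 169, 222 and 295 against 314, 355 and 474, was lower without overlap (-0.71, SE 0.25, limma adjusted p = 0.16). Of 26 further maternally expressed genes, 18 had 34 tested probe sets, of which 1 was called higher (Ube3a) and none lower, with a median of -0.02. Over all tested probe sets, 1.24% were called higher and 0.733% lower. Both called probe sets of these lists entered the test only through the Dap12-ko arrays. So did Inpp5f 1442100_at of the paternal list, and Gnas 1421740_at, Ube3a 1431224_at and Ube3a 1445727_at of the maternal list. All of these had to be above 0, and the medians include them. In limma, 3 of the 22 and 7 of the 34 had an unadjusted p under 0.05, against 4713 of 22518 over the whole array. The 3 include Ipw and the 7 include Ube3a 1425206_a_at and Gnas 1421740_at, which entered through the Dap12-ko arrays only.

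Markers of brain regions also differed among these arrays. Of 17 tested probe sets of hypothalamic genes, 14 had a change below 0. The median of the 17 was -0.75 (-1.15 after centring), and 2 were called lower, where 0.733% of all tested probe sets were. Hap1, a huntingtin partner, read 204, 285 and 326 against 797, 774 and 730 (-1.47, SE 0.21, limma adjusted p = 0.023). Baiap3, a regulator of vesicle release, read 174, 197 and 430 against 773, 820 and 885 (-1.68, SE 0.31, limma adjusted p = 0.039). The neuropeptide Oxt read 395, 172 and 212 against 504, 602 and 493, while Pmch read 1743, 441 and 2247 against 570, 2654 and 878 with wide overlap. The list held 24 genes, of which 23 were found by symbol, and it shares Calcr with the imprinted genes above. Their summed level was 2214 to 6214 on the Dap12-ko arrays and 5269 to 7941 on the Dap12-het arrays, and Nkx2-1, Rax and Six6, which mark the developing hypothalamus, were below 20 on every array. Relative to the Dap12-het mean, the median of the list was -0.89, -1.38 and -0.36 on arrays 67, 68 and Ko1. On the same arrays Dlk1 1442724_at was at -1.12, -1.11 and -1.15, Dlk1 1449939_s_at at -1.38, -0.98 and -1.84, and Magel2 at -1.15, -0.59 and -0.43. The part of the hypothalamic share of the tissue in the lower Dlk1 and Magel2 signals was not tested.

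Other regions separated arrays within the groups. Striatal markers had medians of -0.87, -0.94 and 1.33 on the Dap12-ko arrays and -0.58, -0.68 and 1.20 on the Dap12-het arrays, so that Ko1 and 81 stood together. Thalamic markers ran the other way, with 1.10, 0.88 and -1.01 against 0.00, 0.63 and -0.64. Choroid plexus markers had summed levels of 728 to 18193 on the Dap12-ko arrays and 931 to 3827 on the Dap12-het arrays, led by Ttr, the transthyretin of that tissue, at 16069, 17643 and 402 against 622, 1539 and 3532. All 11 tested choroid plexus probe sets had a change above 0 (8 of 11 after centring), none passed, and 1 of the 11 listed genes on the array (Slc4a5) was below 20 on every array. Among the 11, Kl (15.8, 14.5 and 18.3) and Folr1 (17.2, 15.8 and 15.9) were under the filter level on the Dap12-het arrays. Both entered the test only through the Dap12-ko arrays and had to be above 0. Whether more of the 11 did so was not counted. The order of Cdkn1c, Meg3 1429257_at and Meg3 1428764_at on the Dap12-ko arrays, with 67 and 68 high and Ko1 low, was also that of the thalamic medians and of Ttr. Igf2 was lowest on Ko1 among the Dap12-ko arrays, as Ttr was, and lowest on 81 among the Dap12-het arrays, where Ttr was highest. Meningeal markers summed to 961 to 1146 on the Dap12-ko arrays and to 460 to 1032 on the Dap12-het arrays. Where 1.24% of all tested probe sets were called higher and 0.733% lower, general neuronal markers had 4 of 29 called higher and none lower. Their median was 0.14 (-0.26 after centring). Myelin markers had 8 of 24 called higher and 1 lower, with a median of 0.96 (0.56 after centring). The part of these differences in the values of the imprinted genes was not tested. When Ko1 and 81 were both left out, the 2 Dlk1 probe sets and Snrpn kept their direction. The hypothalamic list still differed on the arrays kept. Its medians were -0.89 and -1.38 on 67 and 68 and -0.07 and 0.05 on 75 and 76.

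**Figure D4:**
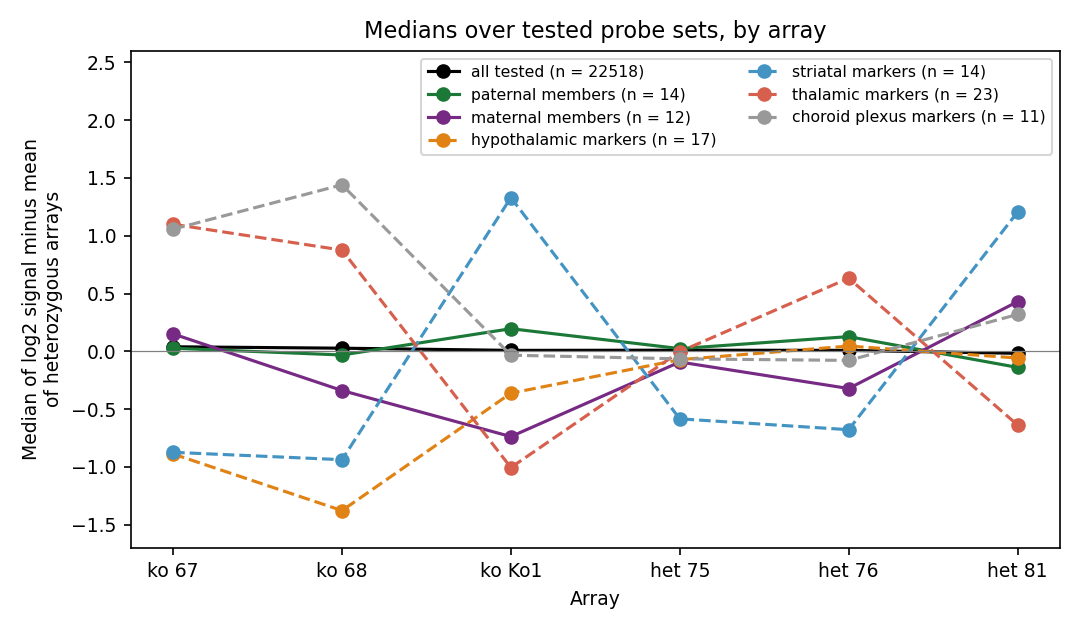
Median of log2 signal minus the mean of the 3 Dap12-het arrays (vertical axis) over the tested probe sets of each class, on each of the 6 arrays (horizontal axis); solid lines are imprinted classes and all probe sets, dashed lines are regional marker lists, and lines imply no order of the arrays. The median of all probe sets stays near 0, the maternal genes run from 0.15 to -0.74 among the Dap12-ko arrays, and striatal and thalamic markers move in opposite directions on Ko1 and 81.

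The probe set most like Meg3 1452906_at over the 6 arrays, by the measure used for Dlk1, belonged to Sema4d, followed by Prmt6, Cdc42ep4, Zfp316 and Sod3, at 0.06 to 0.11, where the median over 19911 probe sets was 0.58. Peg3 1417355_at was the nearest imprinted gene of this group to it, at 0.25. Of the 10 genes, 6 lie on chromosome 7, as does Tyrobp, and none of them is within 10 Mb of it in RefSeq.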

How the data were processed

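Brain RNA of 6 mice was read on 6 one-colour Affymetrix arrays after Trizol and RNeasy extraction and one-cycle biotin labelling, per the labels' protocols. The authors deposited linear signal intensity values made with GCOS, the scanner software, per the submitters' processing notes; the summary algorithm, detection calls and scale factors were not given there. The number of arrays limits the precision. The 64 control probe sets were left out, 16 was added to each intensity before log2, and probe sets with a mean log2 value above the median were tested (22518 of 45037). Groups were compared with limma 3.58.1 (R 4.3.3; lmFit, eBayes with trend, two-sided, Benjamini-Hochberg, threshold 0.05), after the procedure was tested on simulated data. Differences between neighbouring genes used an exact permutation test over arrays. Genes were named from the platform annotation, which gives 1 symbol for 34945 probe sets, several for 932 and none for 9160. The text gives every tested probe set of the 10 genes and the others by their signals, with Tyrobp and Xist as checks. It gives the other imprinted genes that passed or had the smallest p in their list, and cluster neighbours. It gives the 2 hypothalamic and the 2 choroid plexus markers with the smallest p, and the 5 probe sets most like Dlk1 and Meg3. Markers of the other lists, which the same rule picks, are left out because no value here turns on them. Gnas and Inpp5f, Oxt, Pmch and Ttr, and Slc4a5, Nkx2-1, Rax and Six6 as low markers, were added after their values were seen. The 10 genes, the marker lists and the tests were chosen with earlier results of these data known. Other normalizations, added constants, filters, moderation settings, an Xist covariate and sets of arrays were tried as alternatives. Promoter windows came from RefSeq annotation of GRCm38.p6.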

Additional observations from a re-analysis of the deposited data

How the results depend on the processing

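In all alternatives run, both Dlk1 probe sets stayed below 0 and Snrpn above 0, whether or not they passed. Counts of calls moved more: of 445 over all probe sets, 131 were called after quantile normalization, 124 with no filter, 180 without trend, 4786 with array weights, 0 with Xist as a covariate (3177 at an unadjusted p under 0.05 in limma), 116 with 1 probe set per gene and 4478 without Ko1 and 81, and 0 to 5220 when single arrays were left out. For the 26 imprinted probe sets, of which 3 passed, the same settings gave 0 after quantile normalization, 1 with no filter, 1 without trend, 10 with weights, 0 with the Xist covariate and 11 without Ko1 and 81, and 0 to 12 when single arrays were left out. For the other imprinted genes, of whose probe sets 2 passed, the counts were 0 after quantile normalization, with no filter, with 75% of probe sets filtered out, with the Xist covariate and without 67 and 68, 1 after centring and with 1 probe set per gene, 9 with weights, 7 without Ko1 and 81, and 0 to 8 when single arrays were left out. The paternal median was -0.31 after quantile normalization, -0.44 after centring, -0.17 with weights, 0.11 with the Xist covariate, 0.20 without 67 and 68, -0.28 without Ko1 and 81, and -0.24 to 0.10 when single arrays were left out. Without 67 and 68 the maternal median was -0.74 and the Dlk1 minus Meg3 difference was -0.23 (-0.93 with all arrays). The causes of these shifts were not tested.

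Changes of sign fell on probe sets that had not passed. Without 67 and 68 they were Cdkn1c (-0.81), Meg3 1429257_at (-1.46), 1428764_at (-0.74), 1436713_s_at (-1.02) and 1426758_s_at (0.19), Ndn 1415923_at (0.46), Nnat (0.30) and Peg3 1417355_at (-0.42). With the Xist covariate they were Meg3 1429257_at (-0.029), 1428764_at (-0.042) and 1436713_s_at (-0.066), Ndn 1415923_at (0.16), Nnat (0.073) and Peg3 1417355_at (-0.16). Centring turned Meg3 1436713_s_at (-0.31), Ndn 1437853_x_at (-0.28) and 1455792_x_at (-0.26), and Peg3 1417355_at (-0.38) and 1417356_at (-0.26). Quantile normalization turned Igf2 (0.020), Ndn 1437853_x_at (-0.33) and 1455792_x_at (-0.29), and Peg3 1417355_at (-0.23). Without Ko1 and 81, Peg3 1417356_at was at -0.13. Leaving out single arrays gave -0.53 to 0.25 for Igf2, -0.47 to 0.076 for Meg3 1426758_s_at, -0.022 to 1.71 for 1429257_at, -0.26 to 0.64 for 1436713_s_at and -0.58 to 0.17 for 1452906_at. It gave -0.68 to 0.060 for Ndn 1415923_at, -0.15 to 0.24 for Peg3 1417355_at and -0.14 to 0.28 for Peg3 1417356_at. No paired analysis was possible because the groups share no replicate names. With 3 arrays in each group, dim probe sets and those that differ between regions of the brain are the least certain.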
